A study of Mus musculus with 12 samples.

Results

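Mineral deposition by osteoblasts is set by the balance of inorganic phosphate and its inhibitor pyrophosphate, and RNA of 9 genes that set this balance was followed in mouse calvarial cells. They were chosen by name, as genes known to act on phosphate, pyrophosphate or mineral: Alpl, Enpp1, Ank, Phospho1, Slc20a1, Slc20a2, Phex, Mgp and Smpd3. Earlier results of these data were known at the choice, so counts of called genes below describe these genes and do not test the set. All 9 were among the 25511 genes of the deposited table, each as a single entry, and all 9 passed the filter on low counts that left 13603 genes for testing. Cells came from skulls of neonatal C57Bl/6J mice by collagenase digestion and were either WT or labelled F2rl1 -/- (KO), F2rl1 being the gene of protease-activated receptor 2. After 48 h of preculture, both genotypes were held for 4 days in BRFF-HPC1 medium with 20% fetal serum, unconditioned or conditioned for 48 h by the human prostate cancer line MDA-PCa-2b. The 4 groups were WT unconditioned, WT conditioned, KO unconditioned and KO conditioned, with 3 samples each. The serum, the basal medium and the collagenase isolation were shared by all groups, and no group had medium conditioned by another cell line. The cells are a mixed primary isolate, and the labels call them osteoblast-like.

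Pyrophosphate binds to growing mineral crystals and stops them. Osteoblasts make it outside the cell from nucleotides with Enpp1, move it or its precursor out of the cell with Ank, and destroy it with tissue-nonspecific alkaline phosphatase, Alpl, which releases phosphate. Inside matrix vesicles, the small membrane sacs in which mineral first forms, Phospho1 frees phosphate from phosphocholine, which sphingomyelinases such as Smpd3 supply. Slc20a1 and Slc20a2 carry phosphate into cells, Phex is a membrane peptidase whose loss causes phosphate wasting, and Mgp is a vitamin K-dependent protein that blocks mineral in soft tissue and cartilage.

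Libraries held 15023994 to 16956754 fragments. Libraries numbered 0 and 1 of the unconditioned WT group held equal values for 91.8% of 17538 genes and differed by less than the sampling noise (chi-square 761 on 15476 degrees of freedom), so they were counted as 1 sample, which left 11 libraries and 2 in that group. One sample titled WT carries the KO genotype label, was kept by its title and may or may not be among those 2. F2rl1 itself had 12 to 46 fragments per library and was not lower in the KO-labelled libraries, which held 33, 33 and 46 fragments unconditioned and 31, 13 and 12 conditioned, against 25 and 20 in unconditioned WT and 14, 23 and 14 in conditioned WT libraries. Which part of the gene was deleted is not given in the sources used here, so this gene did not check the labels, and every genotype direction below is between libraries labelled KO and WT. Osteoblast identity genes were present: Runx2 had 1195 to 1411 fragments, Sp7 had 32 to 604 and Col1a1 had 100542 to 328342. Several genes of mature osteoblasts and osteocytes were low, with 3 to 16 fragments of Ibsp, 0 to 13 of Bglap, 0 to 5 of Dmp1 and 0 of Mepe. Not all bone matrix genes were low: Spp1, listed with Dmp1 and Mepe among the mineral-binding proteins, had 29518 to 177955 fragments.

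The regions just before the start sites of Alpl, Enpp1 and Phospho1 are shown because these genes carry the medium results and Alpl and Enpp1 moved the same way. Each is the 250 bases upstream of a RefSeq start (GRCm38.p6), read along the gene, with capitals marking matches to any of 4 short motifs. Alpl and Enpp1 lie on the minus strand, and Phospho1 lies on the plus strand.
Alpl, chr4:137796385-137796634, minus strand: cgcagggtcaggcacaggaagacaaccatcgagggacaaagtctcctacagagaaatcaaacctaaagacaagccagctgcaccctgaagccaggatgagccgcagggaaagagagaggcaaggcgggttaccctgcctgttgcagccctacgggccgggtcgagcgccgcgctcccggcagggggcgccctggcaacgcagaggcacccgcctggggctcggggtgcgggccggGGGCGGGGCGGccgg
Enpp1, chr10:24712160-24712409, minus strand: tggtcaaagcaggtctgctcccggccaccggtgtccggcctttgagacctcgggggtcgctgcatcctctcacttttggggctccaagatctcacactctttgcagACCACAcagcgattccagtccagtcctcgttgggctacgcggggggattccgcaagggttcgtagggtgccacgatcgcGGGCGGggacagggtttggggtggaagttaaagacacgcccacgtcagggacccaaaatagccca
Phospho1, chr11:95824250-95824499, plus strand: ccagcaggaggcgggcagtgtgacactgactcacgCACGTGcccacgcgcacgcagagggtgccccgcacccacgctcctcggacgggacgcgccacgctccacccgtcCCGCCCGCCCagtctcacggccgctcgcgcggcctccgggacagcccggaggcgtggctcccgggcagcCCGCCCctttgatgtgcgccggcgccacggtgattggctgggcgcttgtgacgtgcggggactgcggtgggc
The motifs searched on both strands were the GC box (GGGCGG or CCGCCC), the RUNX core (TGTGGT or ACCACA), the palindromic E-box (CACGTG) and the TATA box (TATAAA or TTTATA). GC boxes occurred in all 3 windows, beginning 15 and 10 bases before the start in Alpl, 65 bases before it in Enpp1 and 141, 137 and 72 bases before it in Phospho1. The 2 matches in Alpl share 1 base and the first 2 in Phospho1 share 2 bases. A GC box was found in 32.7% of 32841 RefSeq windows of the same length. Enpp1 alone of the 3 had a RUNX core, 144 bases before the start, and 14.0% of all windows held one. Phospho1 alone of the 3 had an E-box, 215 bases before the start, and 6.02% of all windows held one. None of the 3 windows held the TATA letters, which 12.4% of all windows did. Alpl has another RefSeq start, whose window (chr4:137766476-137766725) is not printed. That window held the TATA letters 192 bases before its start and no GC box, so the Alpl matches depend on the start chosen. Windows of 6 of the 9 genes were matched by symbol. Slc20a2, Mgp and Smpd3 had no entry.

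Between genes, levels were compared as FPKM, fragments scaled to transcript length and library size by the authors' software. Mgp stood highest, from 427 to 1512 FPKM with a median of 532 over the 11 libraries. Slc20a1 followed at 34.2 to 73.1 FPKM (median 59.8) and overlapped with no other gene except Alpl, whose highest library reached 39.0 FPKM. Ank (10.8 to 23.4 FPKM, median 18.9), Slc20a2 (11.7 to 19.2, median 14.4) and Alpl (4.49 to 39.0, median 12.4) overlapped one another. Enpp1 (2.62 to 17.3 FPKM, median 8.11) and Phospho1 (4.31 to 13.6, median 6.25) overlapped as well. Smpd3 and Phex were near the floor, with 0.0956 to 0.313 and 0.0203 to 0.236 FPKM, which rested on 8 to 26 and 2 to 30 fragments per library. Within a gene, levels below are CPM, in which TMM factors adjust each library's size.

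**Figure D1:**
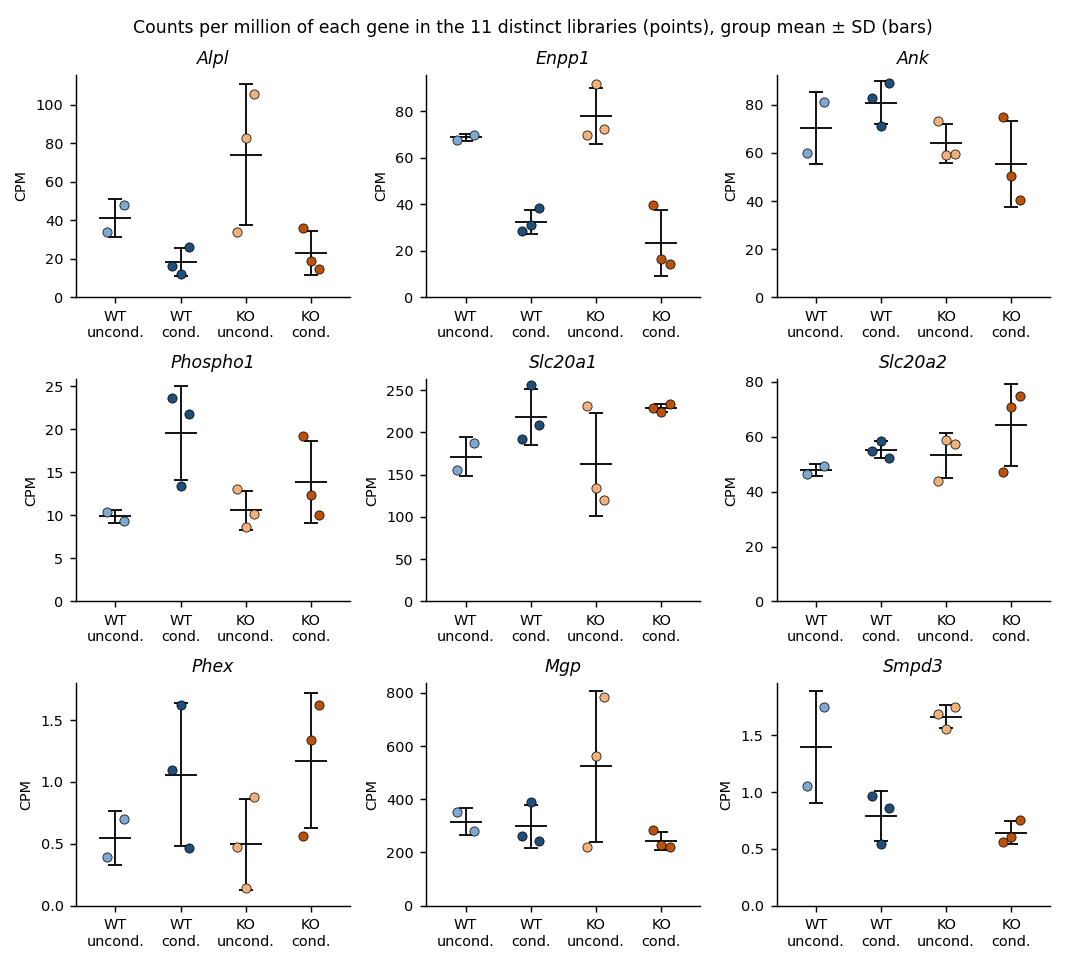
Counts scaled to library size (CPM, y axis from 0) of the 9 genes in the 11 distinct libraries, by group; points are libraries, horizontal bars are group means and whiskers are SD (n = 2 for WT unconditioned, n = 3 for the others). Enpp1 lies at 67.6 to 91.6 CPM in all unconditioned and at 14.1 to 39.8 CPM in all conditioned libraries, while Ank overlaps between all groups.

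The first question was how the tumour-conditioned medium changed these genes. Averaged over both genotypes, Alpl, Enpp1 and Smpd3 RNA fell and Phospho1 RNA rose, while Ank, Slc20a1, Slc20a2, Phex and Mgp did not pass the test. Thus 4 of the 9 genes were called at an adjusted p under 0.05 (edgeR quasi-likelihood, Benjamini-Hochberg over all genes), against 20.5% of all genes tested, and 3 were lower, against 10.1%. With the genotypes taken apart, 3 of 9 passed in KO-labelled cells, all lower, against 18.3% of all genes and 8.58% lower. In KO-labelled cells 9.68% of all genes were higher. In WT cells 0 of 9 passed, against 1.78% of all genes (1.23% higher and 0.551% lower, and 15.2% at an unadjusted p under 0.05). The median log2 change of the 9 genes was -0.01 for the average, -0.21 in KO-labelled and 0.20 in WT cells, beside 0.02, 0.02 and 0.01 over all genes tested. As these are bulk samples, fewer cells of a type and less RNA per cell cannot be told apart.

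Of the pyrophosphate genes, Enpp1 (chr10:24637924-24712102, GRCm38), the ectoenzyme that makes pyrophosphate from ATP, changed most evenly. Unconditioned libraries held 67.6 and 69.8 CPM in WT and 69.6, 91.6 and 72.2 CPM in KO-labelled cells. Conditioned libraries held 28.4, 30.9 and 38.3 CPM in WT and 39.8, 16.3 and 14.1 CPM in KO-labelled cells. Every conditioned library lay below every unconditioned one, a separation of the 6 conditioned from the 5 unconditioned libraries that 16.4% of all genes showed. The fall averaged -1.41 on the log2 scale (SE 0.25, 2.65-fold lower, edgeR adjusted p = 0.00457) and stayed called in 16 of 16 alternative settings. In KO-labelled cells Enpp1 fell by 1.73 on the log2 scale (SE 0.34, 3.33-fold lower, adjusted p = 0.0121). With conditioned KO library 1 left out its adjusted p was 0.0583, with unconditioned KO library 1 left out 0.0561, and with only the 2 KO groups fitted 0.0649, so each of these settings ended the call. In WT cells the change was -1.08 (SE 0.37) with an adjusted p of 0.178, and it passed when only the 2 WT groups were fitted (0.0322) or conditioned KO library 0 was left out (0.00723). Over its 17 alternative settings in WT the adjusted p ran from 0.00723 to 0.617.

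Alpl (chr4:137741731-137796384), the phosphatase that removes pyrophosphate, fell alongside Enpp1 but varied more between libraries. Unconditioned libraries held 34.0 and 48.0 CPM in WT and 34.0, 82.7 and 105.7 CPM in KO-labelled cells. Conditioned libraries held 16.1, 12.02 and 26.2 CPM in WT and 36.2, 18.7 and 14.6 CPM in KO-labelled cells. The WT groups did not overlap, whereas conditioned KO library 0 lay above unconditioned KO library 0, so the KO-labelled groups overlapped. Averaged over genotypes, Alpl fell by 1.43 on the log2 scale (SE 0.34, 2.69-fold lower, edgeR adjusted p = 0.0177), a call lost of 16 alternatives only without unconditioned WT library 2 (0.0769). In KO-labelled cells the fall was 1.68 on the log2 scale (SE 0.47, 3.20-fold lower, adjusted p = 0.0366). It stayed called in 9 of 17 alternative settings, with adjusted p from 0.00249 to 0.135. The call was lost without conditioned or unconditioned KO library 1 (0.135, 0.115), without conditioned or unconditioned KO library 2 (0.129 in both), without conditioned WT library 0 (0.0548), without unconditioned WT library 0 or 2 (0.0551, 0.0553) and with only the KO groups fitted (0.103). In WT cells the change of -1.18 (SE 0.51) did not pass (adjusted p = 0.306).

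Ank (chr15:27466677-27594907), the membrane protein that exports pyrophosphate or its nucleotide source, did not follow the other pyrophosphate genes. It held 59.9 and 81.1 CPM in unconditioned and 82.8, 71.2 and 88.9 CPM in conditioned WT libraries, and 73.5, 59.2 and 59.6 CPM in unconditioned and 75.1, 50.4 and 40.4 CPM in conditioned KO-labelled libraries. The groups overlapped in both genotypes. Its average log2 change was -0.01 (SE 0.16, edgeR adjusted p = 0.981), and its sign changed between settings.

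**Figure D2:**
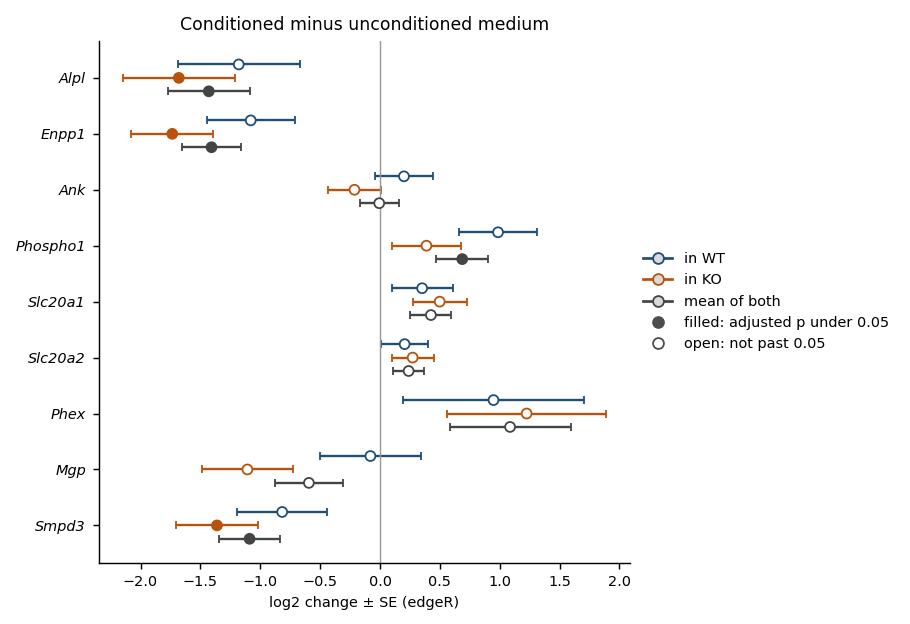
Log2 change between conditioned and unconditioned medium (x axis, point) with its SE (whisker) for the 9 genes, in WT, in KO-labelled cells and as the mean of both; filled points have an edgeR adjusted p under 0.05. Enpp1, Alpl and Smpd3 lie below 0 in each comparison and are filled in KO and in the mean, and Phospho1 is filled in the mean.

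The ratio of Alpl to Enpp1, the enzyme that removes pyrophosphate over the one that makes it, ran from 0.389 to 1.46 in CPM. CPM are not scaled to transcript length, so the ratio is compared between libraries only and does not give which RNA was more abundant. In FPKM, which are scaled to length, the median over the 11 libraries was 12.4 for Alpl and 8.11 for Enpp1. In WT it was 0.503 and 0.688 in unconditioned and 0.567, 0.389 and 0.684 in conditioned libraries. In KO-labelled cells it was 0.489, 0.903 and 1.46 in unconditioned and 0.911, 1.15 and 1.03 in conditioned libraries. The media overlapped in both genotypes, in KO-labelled cells through unconditioned library 2 alone, and a shift in the ratio was not tested. Over the 11 libraries the log2 CPM of Alpl and Enpp1 had a Pearson correlation of 0.82, which describes libraries that share the same medium groups.

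**Figure D3:**
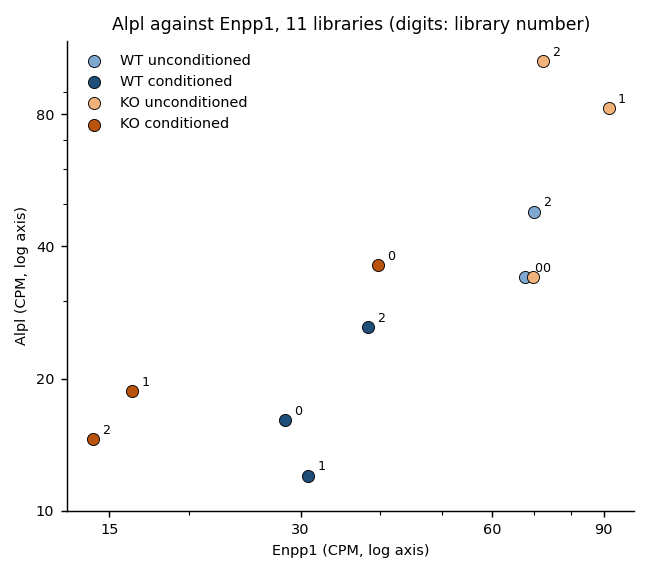
Alpl against Enpp1 in CPM (both axes logarithmic) for the 11 libraries, coloured by group, with the library number beside each point. The 5 unconditioned libraries lie at the right, at 67.6 CPM of Enpp1 or above, and spread in Alpl from 34.0 to 105.7 CPM.

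Smpd3 and Phospho1, 2 genes of the phosphocholine route, moved in opposite directions on average. Smpd3 (chr8:106252548-106337988), neutral sphingomyelinase, which frees phosphocholine from sphingomyelin, had 16 and 25 fragments in unconditioned WT and 25, 22 and 26 in unconditioned KO-labelled libraries. Conditioned libraries had 15, 8 and 13 fragments in WT and 9, 10 and 14 in KO-labelled cells. In CPM every conditioned library lay below every unconditioned one. Smpd3 fell by 1.09 on the log2 scale on average (SE 0.25, 2.13-fold lower, edgeR adjusted p = 0.0153), a call lost of 16 alternatives only without unconditioned WT library 2 (0.0877). In KO-labelled cells it fell by 1.36 (SE 0.34, adjusted p = 0.0268) and was called in 12 of 17 alternatives. The losses were without conditioned KO library 1 or 2 (0.105, 0.0678), without unconditioned KO library 1 or 2 (0.0811, 0.0887) and with only the KO groups fitted (0.0590). In WT the change was -0.82 (SE 0.37, adjusted p = 0.342). With at most 26 fragments per library, these values rest on little data, and on log2(FPKM + 1) the average change was -0.17. In GENCODE vM21, 247 of the 5232 exonic bases of Smpd3 overlap Prmt7 on the other strand, and the libraries did not mark strand.

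Phospho1 (chr11:95824500-95845731 as the authors' entry runs), the vesicle phosphatase that acts on phosphocholine, rose. It held 10.4 and 9.37 CPM in unconditioned WT and 13.05, 8.60 and 10.1 CPM in unconditioned KO-labelled libraries. In conditioned medium it held 23.6, 13.4 and 21.7 CPM in WT and 19.2, 12.4 and 10.0 CPM in KO-labelled cells. The WT groups did not overlap and the KO-labelled groups did. The average log2 change was 0.69 (SE 0.22, 1.61-fold higher, edgeR adjusted p = 0.0491), close to the threshold and called in 6 of 16 alternatives with adjusted p from 0.0181 to 0.161. It was lost with RLE scaling and with no count filter (both 0.0523), on FPKM (0.0844) and without conditioned KO library 1 (0.0788), unconditioned KO library 1 or 2 (0.110, 0.0983), conditioned WT library 0 or 2 (0.116, 0.0900) or unconditioned WT library 0 or 2 (0.130, 0.161). In GENCODE vM21, 1708 of its 2029 exonic bases overlap Abi3 on the other strand and 1818 overlap Zfp652 on the same strand. The libraries did not mark strand and the table gives fractional fragments for this gene, so its values are uncertain.

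Of the phosphate carriers, neither passed the test. Slc20a1 (chr2:129198773-129211612) held 155 and 187 CPM in unconditioned and 192, 256 and 208 CPM in conditioned WT libraries. KO-labelled libraries held 232, 134 and 120 CPM unconditioned and 229, 224 and 234 CPM conditioned. In WT the groups just failed to overlap, and in KO-labelled cells unconditioned library 0 stood within the conditioned range. The average log2 change was 0.43 (SE 0.17, edgeR adjusted p = 0.103). Without unconditioned KO library 0, Slc20a1 rose by 0.85 in KO-labelled cells (adjusted p = 0.00700) and by 0.60 on average (0.00442), and with the duplicated library kept as a separate replicate the average also passed (0.0478).

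Slc20a2 (chr8:22462614-22569616) was the most even of the 9 genes. It held 46.3 and 49.5 CPM in unconditioned and 54.8, 58.5 and 52.3 CPM in conditioned WT libraries, and 43.9, 58.7 and 57.2 CPM in unconditioned and 47.2, 70.8 and 75.0 CPM in conditioned KO-labelled libraries. The groups were separate in WT and overlapped in KO-labelled cells. Its average log2 change was 0.24 (SE 0.13, edgeR adjusted p = 0.220), and it passed without conditioned KO library 0 (0.33 with adjusted p = 0.0185 on average, 0.46 with 0.0176 in KO-labelled cells).

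Phex (chrX:157162075-157415286) had 6 and 10 fragments in unconditioned and 17, 24 and 7 in conditioned WT libraries, and 7, 2 and 13 in unconditioned and 9, 22 and 30 in conditioned KO-labelled libraries. Groups overlapped in both genotypes. Its average log2 change of 1.09 had an SE of 0.51 (edgeR adjusted p = 0.150), and it did not pass.

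Mgp (chr6:136872435-136875805), the mineral inhibitor, was the most abundant of the 9 and the most variable in one group. Unconditioned KO-labelled libraries held 222, 564 and 785 CPM, against 351 and 281 CPM in unconditioned WT. Conditioned libraries held 260, 391 and 245 CPM in WT and 283, 226 and 219 CPM in KO-labelled cells. Unconditioned KO library 0 lay within the conditioned range and libraries 1 and 2 lay far above it. The log2 change was -1.11 in KO-labelled cells (SE 0.38, edgeR adjusted p = 0.0672), -0.08 in WT (SE 0.42, 0.963) and -0.59 on average (SE 0.28, 0.157). In KO-labelled cells it passed in 3 of 17 alternatives: with DESeq2 (0.0179), with the duplicated library kept separate (0.0463) and without unconditioned KO library 0 (-1.47, 0.00586).

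In WT cells, 6 of the 9 genes had conditioned libraries that did not overlap with the unconditioned ones, namely Alpl, Enpp1, Phospho1, Slc20a1, Slc20a2 and Smpd3, where 42.5% of all genes did so. In KO-labelled cells only Enpp1 and Smpd3 did, against 31.2% of all genes. KO libraries numbered 0 stood apart from the other 2 in both media: for Alpl, Mgp and Slc20a1 unconditioned, and for Enpp1, Ank and Slc20a2 conditioned, library 0 lay away from libraries 1 and 2 toward the other medium's values or beyond. The reverse held for conditioned Phospho1 (19.2 against 12.4 and 10.0 CPM) and unconditioned Slc20a2 (43.9 against 58.7 and 57.2 CPM), where library 0 lay away from the other medium's values. With both KO libraries numbered 0 left out, a setting chosen after the values were seen, the average medium change was called for 7 of the 9 genes, and for 6590 genes in all against 2787 with every library in the fit. Alpl then changed by -1.84 (edgeR adjusted p = 0.000915), Enpp1 by -1.76 (3.30e-05), Smpd3 by -1.04 (0.0162) and Mgp by -0.84 (0.00463). Phospho1 changed by 0.62 (0.0199), Slc20a1 by 0.60 (0.00161) and Slc20a2 by 0.27 (0.00661).

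The authors' deposited table of start-site groups calls more of these genes between media in WT, where its test lists the duplicated library as 2. In WT that deposited table gives q = 0.00110 for the main Alpl group (log2 change -1.12) and for Enpp1 (-1.15), and q = 0.00849 for Phospho1 (1.017), none of which passed in the edgeR fit in WT. In KO-labelled cells the authors' deposited table gives q = 0.00110 for Alpl (-1.65), Enpp1 (-1.73) and Mgp (-1.12), of which Mgp did not pass in the edgeR fit. The authors' deposited table marks Smpd3 and Phex as not tested.

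The second question was whether the genotype label changed these genes. None of the 9 passed in unconditioned medium, where 1 gene of 13603 (0.00735%) did and 2.16% had an unadjusted p under 0.05, or in conditioned medium, where 0 genes did (0%; 13.9% had an unadjusted p under 0.05, and DESeq2 called 2 genes). Genotypes were separate in every library for 0 of the 9 genes in either medium, against 17.1% of all genes in unconditioned and 8.87% in conditioned medium. In unconditioned medium Alpl was 0.85 higher on the log2 scale in KO-labelled libraries (SE 0.52) and Mgp was 0.73 higher (SE 0.43), each with an edgeR adjusted p of 0.998, and both groups overlapped because KO library 0 lay at or below the WT libraries. In conditioned medium Ank was -0.55 (SE 0.22, adjusted p = 0.357), Phospho1 was -0.50 (SE 0.28, 0.390) and Enpp1 was -0.48 (SE 0.34, 0.450). Without conditioned KO library 0, 4 of the 9 passed in conditioned medium, and 4507 genes in all: Enpp1 at -1.08 (0.00229), Ank at -0.82 (0.00804), Phospho1 at -0.79 (0.0451) and Slc20a2 at 0.41 (0.0347). Over the 17 alternative settings the adjusted p of these 4 genes otherwise reached no call, with highest values of 0.958, 0.957, 0.957 and 0.960. The authors' deposited table, whose test lists the duplicated library as 2, gives q = 0.00203 for the main Alpl start-site group (log2 change 0.80) and q = 0.0143 for Mgp (0.68) in unconditioned medium, and q = 0.0395 for Ank (-0.54) in conditioned medium.

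**Figure D4:**
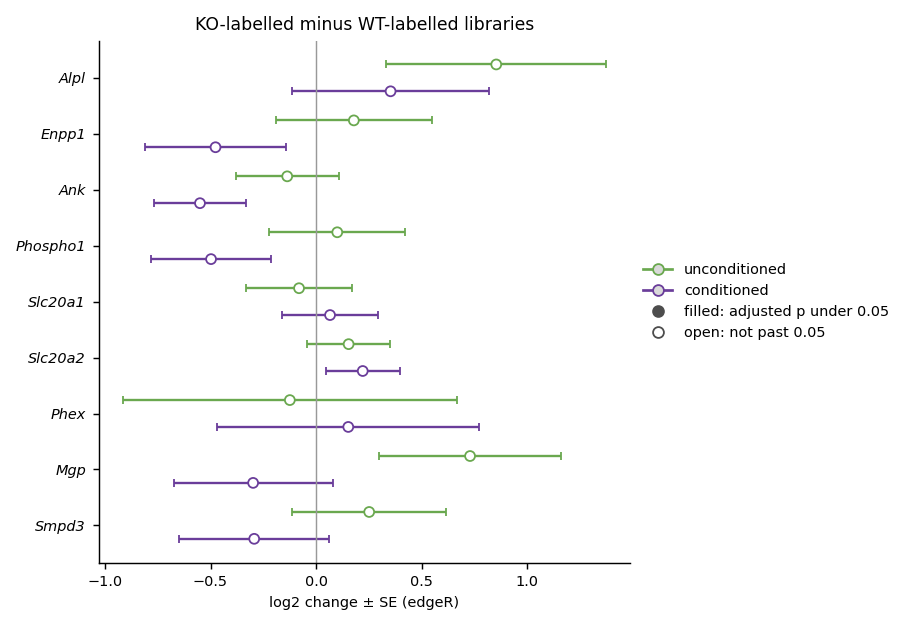
Log2 difference between KO-labelled and WT-labelled libraries (x axis, point) with its SE (whisker) in unconditioned and conditioned medium; open points did not pass an edgeR adjusted p of 0.05. All points are open, with Alpl at 0.85 and Mgp at 0.73 unconditioned and Ank at -0.55 conditioned.

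The difference between the genotypes' medium effects was tested as an interaction, and 0 of the 9 genes and 0% of all genes passed with edgeR (3.03% had an unadjusted p under 0.05). The estimates were -1.03 for Mgp (SE 0.57), -0.66 for Enpp1 (SE 0.50), -0.60 for Phospho1 (SE 0.43) and -0.50 for Alpl (SE 0.69), with adjusted p of 0.819, 0.819, 0.819 and 0.868. Medium effects called in KO-labelled and not in WT cells are therefore not shown to differ between them. Without conditioned KO library 0 the interaction of Enpp1 was -1.26 (adjusted p = 0.0202), and 1419 genes passed. Without both KO libraries numbered 0 it was -1.34 for Enpp1 (0.0103) and -1.51 for Mgp (0.0239). The adjusted p of the Enpp1 interaction ran from 0.0202 to 0.9998 over its 16 alternative settings.

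Only Alpl and Slc20a2 had more than 1 start-site group with at least 5% of their fragments. The main Alpl group, which the authors' table pairs with the RefSeq transcript whose annotated start follows the window printed above, took 93.6% of the fragments over all libraries. The second Alpl group took 14.9% and 12.8% in conditioned KO libraries 1 and 2, 14.7% and 8.03% in unconditioned KO libraries 1 and 2, 2.01% in unconditioned KO library 0, 0% to 3.89% in conditioned WT libraries and 0% in the other 3 libraries. Its mean share was 5.83% in conditioned and 4.94% in unconditioned libraries, which overlapped (exact two-sided permutation test over 6 against 5 libraries, p = 0.831, adjusted p = 0.931 over 4 shares). The second Slc20a2 group, an assembled transcript, took from 0.00911% to 37.3% of the fragments, with means of 15.8% and 16.6% (exact permutation p = 0.931, adjusted p = 0.931). The number of shares called was thus 0 of 4. Cuffdiff assigns fragments between overlapping transcripts, so shares near 0 may be estimates that failed. The authors' deposited table of start-site use gives a p of 0.0054 for Alpl between genotypes in unconditioned medium, with q = 0.266, and lists q of at least 0.685 for both genes between media.

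As a description of patterns over the 11 libraries, the 3 genes most like each member in log2 CPM were found among 13316 genes with 1 symbol. The libraries share their medium groups, which a correlation picks up. Enpp1 was followed most closely by Loxl3, Nkd2 and Sdc4, each with a Pearson correlation of 0.99. Alpl was followed by Fam122b (0.97), Rcn2 and Nrm (both 0.96), and Mgp by Nthl1 (0.97), Lifr (0.96) and Swap70 (0.96). Slc20a1 was followed by Bicd2 (0.97), Git2 (0.95) and Trp53i11 (0.94), and Slc20a2 by Litaf, Snx10 and Mrpl35 (0.98 each). Ank was followed by 9930012K11Rik, Iqce and Smad6 (0.97 each), and Phospho1 by Arhgap27 (0.98), Coq7 and Lrrfip2 (0.96 each). For the low genes the values were 0.95 to 0.93 for Phex (Gm6194, Dcaf12l2, Cdh19) and 0.94 to 0.92 for Smpd3 (Bok, Fyttd1, 4930579G24Rik). Among the members, Alpl and Slc20a1 ran opposite (-0.83), as did Mgp and Slc20a1 (-0.80).

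Other genes of the same pathways were read from 4 lists, on the average medium effect, where 10.4% of all genes were higher and 10.1% lower. Of 11 tested genes in pyrophosphate and nucleotide handling, 1 rose and 2 fell, with a list median of -0.16 on the log2 scale. Ppa1, the cytosolic pyrophosphatase, fell by 0.70 (SE 0.12, edgeR adjusted p = 0.00366), from 660 to 871 fragments in unconditioned to 379 to 716 in conditioned libraries. Ada, adenosine deaminase, fell by 0.79 (SE 0.23, 0.0380), and Panx1, a channel that releases ATP, rose by 0.39 (SE 0.10, 0.0268).

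Of 6 tested genes in phosphate transport and hormone sensing, 1 rose and 1 fell (list median 0.24). Fam20c, the kinase that phosphorylates secreted mineral-binding proteins, rose on average by 1.15 (SE 0.19, 2.22-fold, edgeR adjusted p = 0.00300) and was called in WT (1.34, 0.0463) and KO-labelled cells (0.96, 0.0268). It had 62 and 93 fragments in unconditioned and 232, 163 and 216 in conditioned WT libraries, and 102, 97 and 111 in unconditioned and 156, 248 and 305 in conditioned KO-labelled libraries, with no overlap. Pth1r, the parathyroid hormone receptor, fell by 0.78 (SE 0.21, 0.0302). Xpr1, the phosphate exporter, rose in KO-labelled cells by 0.66 (SE 0.18, 0.0340). It had 1459, 2239 and 2819 fragments in conditioned and 1395, 1053 and 1064 in unconditioned KO-labelled libraries, and 1263 to 1446 in WT libraries. The kidney and gut carriers Slc34a1, Slc34a2 and Slc34a3 had at most 1 fragment per library.

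Of 5 tested genes in Gla modification and mineral binding, 0 rose and 2 fell (list median -0.29). These were Vkorc1, the vitamin K epoxide reductase that Mgp carboxylation depends on, by 0.82 (SE 0.14, edgeR adjusted p = 0.00429), and its paralog Vkorc1l1 by 0.28 (SE 0.08, 0.0306). Of 11 tested genes of matrix vesicles and phosphocholine supply, 4 rose and 2 fell (list median 0.21). The choline kinases Chka and Chkb rose by 1.24 (SE 0.36, 0.0351) and 0.34 (SE 0.10, 0.0385), Pcyt1a, which uses phosphocholine for lipid synthesis, by 0.28 (SE 0.08, 0.0355), and the acid sphingomyelinase Smpd1 by 0.48 (SE 0.14, 0.0403). Chka was uneven: it had 1145 and 1655 fragments in conditioned KO libraries 1 and 2 and 191 to 323 in the other 9 libraries. Smpd1 was also highest in the same libraries, at 2344 and 2738 fragments. It had 1269 to 1514 in the other conditioned and 1075 to 1170 in the unconditioned libraries. The vesicle annexin Anxa6 fell by 0.69 (SE 0.18, 0.0264) and the sphingomyelin synthase Sgms2 by 0.62 (SE 0.11, 0.00447). Smpd4, another sphingomyelinase, rose in KO-labelled cells by 0.60 (SE 0.18, 0.0417). It had 613, 833 and 947 fragments in conditioned and 535, 429 and 382 in unconditioned KO-labelled libraries.

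**Figure D5:**
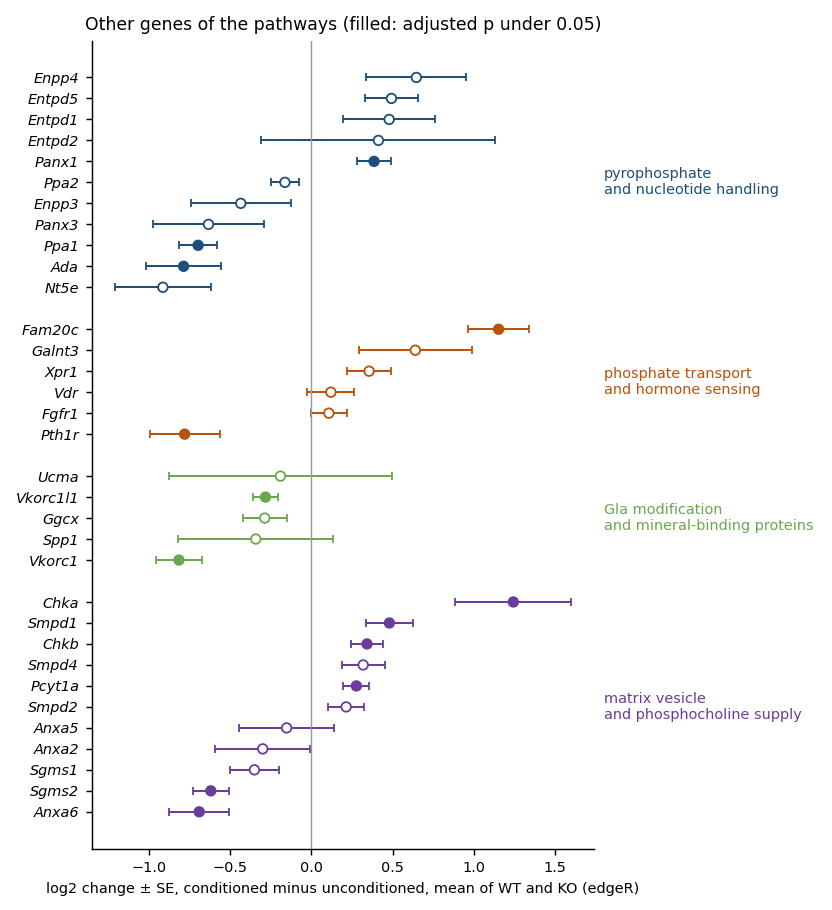
Average log2 change between conditioned and unconditioned medium (x axis, point) with its SE (whisker) for the tested genes of the 4 pathway lists; filled points have an edgeR adjusted p under 0.05. Fam20c at 1.15 and Chka at 1.24 are the highest filled points, and Vkorc1 at -0.82 is the lowest.

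Of the 8 tested osteoblast identity genes, 1 rose and 0 fell in the average medium effect. The riser was Bglap2, with 0 to 5 fragments in unconditioned and 8 to 41 in conditioned libraries (log2 change 2.68, SE 0.66, edgeR adjusted p = 0.0186), and it is uncertain because Bglap is a near-identical copy. Sp7, a factor that osteoblast formation needs, changed by -1.22 (SE 0.67, 0.216) and Col1a1 by -0.73 (SE 0.28, 0.0858). Some genes from marker lists of other cells moved with the medium. Of 4 tested osteoclast genes 2 rose, Ctsk by 1.39 (SE 0.19, edgeR adjusted p = 0.00151) and Atp6v0d2 by 2.21 (SE 0.20, 0.000354). Of the other genes of the list, Acp5 had 15 to 39 fragments per library, Mmp9 1 to 73 and Oscar 3 to 9. Ocstamp had 0 to 5, Calcr 0 to 3 and Dcstamp 0 in every library. The summed level of the list was 99.5 to 163 CPM in unconditioned and 233 to 416 CPM in conditioned libraries. That sum is mostly Ctsk, which had 1380 to 7203 fragments per library, against at most 91 for any other gene of the list. Of 8 smooth muscle and pericyte genes, 1 rose (Cspg4, 1.26, adjusted p = 0.000349) and 2 fell (Cnn1, -2.11, 0.0228, and Rgs5, -1.95, 0.00447), with sums of 1899 to 2508 CPM in unconditioned and 666 to 2106 CPM in conditioned libraries. Of 4 tested endothelial genes, Kdr (edgeR adjusted p = 0.0259), Tek (0.0462) and Vwf (0.00756) rose. The list summed to 4.16 to 8.18 CPM in unconditioned and 8.96 to 16.2 CPM in conditioned libraries. Cdh5, the other tested gene of the list, was not called on average and had 21 to 40 fragments in unconditioned and 32 to 80 in conditioned libraries. Pecam1 and Emcn had only 1 to 7 and 0 to 2 fragments per library. Whether the share of endothelial cells changed was not tested. Trp63 of the keratinocyte list fell (-1.30, edgeR adjusted p = 0.0262), and Fabp4 of the adipocyte list fell (-1.84, 0.00821). No macrophage (43.9 to 126 CPM summed), skeletal muscle (20.6 to 216 CPM) or cartilage gene (836 to 2959 CPM) was called. The part of these cells in the changes of Alpl, Enpp1, Smpd3 and Phospho1 was not tested.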

How the data were processed

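RNA-seq libraries of 4 groups were analysed. The submitters' processing notes name TopHat2 2.0.9, Cufflinks 2.1.1, Cuffdiff 2.1.1 and CASAVA 1.8.2, and the build GRCm38 (mm10). The TruSeq libraries, from RNA with an integrity number over 7.5 per the labels, do not mark strand. The authors' fragments per gene and start-site group are, per the file headers, estimated counts (expected counts), and 94.3% are whole numbers. The FPKM values are the authors', per the file headers, scaled for length and depth. The authors' deposited log2 fold changes, p-values and q-values come from Cuffdiff, and the deposited start-site test gives a distance score that was not used beyond its p-values. Gene positions came from the deposited loci, and transcript lengths, per the file headers, gave no value reported here. Starts are 1 base later than in the deposited tables.

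Fragments were rounded, filtered (filterByExpr, minimum 10), scaled by TMM and tested by robust quasi-likelihood (edgeR 4.0.16, R 4.3.3) in 1 fit of 4 groups over 11 libraries, which left 7 residual degrees of freedom and a common biological coefficient of variation of 0.238. The 1714 genes without a symbol (2.69% to 3.10% of fragments) were left out. An adjusted p under 0.05 was called. Contrasts were genotype within each medium, medium within each genotype, the average medium effect and the interaction. Start-site shares were tested by exact permutation. The SE is the size of the log2 change over the square root of F. The tests were checked on simulated data. Alternatives were DESeq2 1.42.0, RLE scaling, no filter, 12 libraries, only the groups compared, limma 3.58.1 on log2(FPKM + 1), each library left out and, added later, both KO libraries numbered 0 left out.

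The 9 members and all lists were chosen with earlier results of these data known. Named genes are the 9 members, the 3 most correlated genes of each, list genes called in any comparison and F2rl1. Others named, such as Runx2, Sp7 and Col1a1, were chosen as context. No label gives separate animals for the samples of a group, and p-values cover only sample-to-sample spread, which may be technical. Libraries are named by the tables' numbers, which start at 0.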

Additional observations from a re-analysis of the deposited data

How the results depend on the processing

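No paired analysis was possible because the tables' library numbers, which start at 0, are not tied to the replicate numbers of the sample titles, so the planned replicate block was not run. Of 900 alternative settings for the 54 changes of the 9 genes, 824 kept their direction and side of the threshold, 28 lost a call, 17 gained one and 31 changed sign, in none of which the change was called on either side. The cause of these shifts was not tested. Leaving out 1 library gave 0 to 4 of the 9 genes (0 to 4507 of all genes) between genotypes in conditioned medium, 0 to 2 of all genes between genotypes in unconditioned medium, 0 to 1 (0 to 916) for medium in WT, 0 to 5 (319 to 6094) for medium in KO-labelled cells, 1 to 6 (1215 to 5652) for the average and 0 to 1 (0 to 1419) for the interaction. The upper ends came without conditioned KO library 0, except 6 genes and the 2 genes between genotypes, which came without unconditioned KO library 0. The upper end of 5 genes for medium in KO-labelled cells was reached with either of these libraries left out. Without both of these libraries, chosen after the data were seen, the genotype comparison called 659 genes unconditioned and 5765 conditioned (4 of the 9), medium 1589 in WT (2 of the 9), 6822 in KO-labelled cells (6) and 6590 on average (7), and the interaction 2605 (2). DESeq2 called 897 genes for medium in WT and 2 between genotypes in conditioned medium, and 12 separate libraries called 923 for medium in WT. Only the groups compared gave 1 of the 9 genes for medium in WT, 0 of the 9 and 534 genes for medium in KO-labelled cells, and 0 genes between genotypes in unconditioned medium, as did limma on FPKM. The average medium change of Ank was 0.028 with 12 libraries and ran from -0.15 to 0.11 with 1 library out, and that of Mgp in WT from -0.32 to 0.090. The medium difference in the second start-site share ran from -0.94 to 3.32 percentage points for Alpl and from -5.10 to 4.35 for Slc20a2, with 0 shares called in any setting. Phex and Smpd3 rest on 2 to 30 and 8 to 26 fragments per library, and the part of depth in their results was not tested.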
